A study of Mus musculus with 4 samples.

Results

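The Snrpn and Ube3a imprinted domain of mouse chromosome 7 was described through 7 genes, Ube3a, Snrpn, Snurf, Ndn, Magel2, Mkrn3 and the long noncoding transcript Snhg14. A peak of the testis linker histone H1t was counted as a member when it overlapped the body of one of these genes by at least 1 bp, which gave 56 of the 48681 peaks deposited for the whole genome. The genes were chosen by the density of H1t peaks over them, so peak counts, fold, pileup, p and q are given as a description of the locus with no test. H1t was mapped by chromatin immunoprecipitation and sequencing (ChIP-seq) in testicular cells of C57BL6 mice at postnatal day 20, with 2 libraries made with an anti-H1t antibody and 2 input libraries of chromatin that had not been precipitated. The sample labels give pachytene cells as the cell type and testicular cells as the source, and a peak list holds no marker against which that could be checked. The authors pooled the 2 ChIP libraries and the 2 input libraries before they called peaks, so no value has a spread between replicates. The pooled ChIP data held 51192421 fragments, 39221290 of them kept once duplicates were filtered out, and the pooled input held 55300487 and kept 30377916.

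Imprinted genes are expressed from only the maternal or only the paternal copy of a chromosome. In this domain Snrpn, Snurf, Ndn, Magel2, Mkrn3 and Snhg14 are expressed from the paternal copy, while Ube3a, an E3 ubiquitin ligase, is expressed from the maternal copy in neurons. The imprint is a DNA methylation mark laid down in the female germ line at the start of Snurf and Snrpn, and male germ cells lack it. Loss of the paternal genes in humans causes Prader-Willi syndrome, and loss of maternal UBE3A causes Angelman syndrome. Snhg14 is a very long transcript that runs on from the Snrpn side toward Ube3a, ends antisense to it, and carries in its introns tandem arrays of C/D box small nucleolar RNA (snoRNA) genes. H1t is a linker histone, a protein that binds the DNA between nucleosomes, and is made in spermatocytes and spermatids.

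Nearly all of the H1t peaks of the domain lay in the snoRNA arrays of Snhg14. Of the 56 peaks 52 overlapped Snhg14, 3 overlapped Snrpn and 1 overlapped Magel2, while Ube3a, Snurf, Ndn and Mkrn3 held 0. Thus 3 of the 7 genes held a peak, beside 21.7% of all 51229 autosomal genes of the GENCODE annotation, most of which are much shorter than Snhg14. The 2 arrays together held 50 of the 56 peaks. Since most of the peaks lay in these repeated arrays, the repeat units are shown first, all in build GRCm38 and written 5′ to 3′.

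The commonest snoRNA sequence of each array is shown on its own strand, the minus strand, with the C box (TGATGA) near its start and the D box (CTGA) near its end in capitals. The first, Snord116l11 at chr7:59902213-59902306, was identical in 30 of the 70 genes of a family called Snord116-like here, 17 of which carry a Snord116 symbol. The other, Gm24866 at chr7:59393561-59393639, was identical in 33 of the 136 genes of a family of about 79 bases that the annotation gives only Gm symbols. A peak overlapped 12 of those 30 identical genes and 6 of those 33, so in the list copies with the same sequence stood with and without a peak. How fragments that match several copies equally were placed was not tested. Which of the copies carried H1t therefore cannot be told from these counts.
Snord116l11: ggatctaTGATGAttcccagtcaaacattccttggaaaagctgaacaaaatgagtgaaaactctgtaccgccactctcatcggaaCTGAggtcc
Gm24866: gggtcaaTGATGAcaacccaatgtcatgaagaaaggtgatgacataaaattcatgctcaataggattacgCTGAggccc

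The 4 peaks of highest fold among those of at most 300 bp follow, on the plus strand with CpG dinucleotides in capitals. They are shown because they could be printed whole and because 3 of them are pieces of the repeat units between the snoRNAs. The peaks at chr7:59896199-59896492 and chr7:59875690-59875984 lay in the Snord116-like array, and the peaks at chr7:59433116-59433396 and chr7:59384582-59384825 in the 79-base array.
Peak at 59896199: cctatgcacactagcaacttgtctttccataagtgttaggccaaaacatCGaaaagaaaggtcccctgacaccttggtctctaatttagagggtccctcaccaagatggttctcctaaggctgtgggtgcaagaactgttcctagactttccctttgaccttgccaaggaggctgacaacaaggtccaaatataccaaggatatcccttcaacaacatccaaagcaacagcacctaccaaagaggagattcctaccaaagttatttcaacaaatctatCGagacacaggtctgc
Peak at 59875690: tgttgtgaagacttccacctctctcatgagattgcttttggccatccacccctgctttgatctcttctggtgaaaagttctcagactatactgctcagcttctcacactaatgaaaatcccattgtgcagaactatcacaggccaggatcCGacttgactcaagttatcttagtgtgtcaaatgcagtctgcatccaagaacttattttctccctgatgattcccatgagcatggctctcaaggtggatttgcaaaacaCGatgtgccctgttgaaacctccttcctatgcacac
Peak at 59433116: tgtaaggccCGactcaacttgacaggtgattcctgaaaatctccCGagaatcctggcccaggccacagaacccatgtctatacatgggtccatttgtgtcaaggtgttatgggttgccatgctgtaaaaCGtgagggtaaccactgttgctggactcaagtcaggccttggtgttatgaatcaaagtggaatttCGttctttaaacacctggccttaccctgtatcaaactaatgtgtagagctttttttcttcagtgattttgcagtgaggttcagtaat
Peak at 59384582: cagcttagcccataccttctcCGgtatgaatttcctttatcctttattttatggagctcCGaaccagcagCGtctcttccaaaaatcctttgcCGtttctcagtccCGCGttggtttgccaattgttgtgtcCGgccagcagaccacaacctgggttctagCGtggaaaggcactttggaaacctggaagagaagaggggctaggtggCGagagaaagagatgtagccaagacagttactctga

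Each of the first 3 sequences recurred across its array. A search of the 4 Mb window for matches of at least 90% identity over at least 90% of the length found 70 copies of the peak at 59896199, all within Snhg14, with a median identity of 96.9%. The peak at 59875690 also had 70 copies, with a median identity of 99.0%. These peaks were neighbouring pieces of one unit, since in 57 of 70 units a copy of the peak at 59896199 began 284 bases after a copy of the peak at 59875690. The peak at 59433116 had 129 copies in the 79-base array, with a median identity of 92.9%. Only some of the copies lay under a peak, 24 of 70, 22 of 70 and 17 of 129 respectively. The peak at 59384582 had no further copy in the window, although the median of its 31-base words (31-mers) occurred 60 times in the genome. In the reference genome, then, the arrays hold many near-identical copies, and the authors' list places peaks on a minority of them.

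Sequence of a different kind lay under the peak in Magel2, a gene of the MAGE family that acts with ubiquitin ligases. Its first 200 bases, chr7:62380081-62380280 on the plus strand, are coding sequence and are shown for contrast, with CpG dinucleotides in capitals.
Peak at 62380081: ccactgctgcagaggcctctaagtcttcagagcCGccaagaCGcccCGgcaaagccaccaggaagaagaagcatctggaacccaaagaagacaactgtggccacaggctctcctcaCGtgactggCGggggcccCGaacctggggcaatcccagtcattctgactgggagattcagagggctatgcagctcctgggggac

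Snhg14 was among the densest long genes of the genome for H1t peaks. It spans chr7:59307924-59975759 on the minus strand, 667.8 kb with 15 annotated transcripts, and held 7.79 peaks per 100 kb that covered 80107 bp, or 12% of its body. A peak by itself says little at this length, because 99.2% of the 472 autosomal genes of 0.5 to 2 times its length held at least 1 and their median was 10 peaks. By peaks per kb only 3 of those 472 genes, Snhg14 included, were as dense. The 2 above it were long intergenic noncoding RNA genes of chromosome 4, C230088H06Rik with 18.6 peaks per 100 kb and Gm26573 with 11.0. The next below it was the protein-coding gene Prickle2 with 4.47. Of the 52 peaks 43 lay wholly in introns and 9 touched an exon by at least 1 bp. The largest overlap with a single exon was 620 bp, in a peak of 12772 bp. Exons make up 3.91% of the length of the gene, a share of bases that is not comparable with a count of peaks touching an exon.

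**Figure D1:**
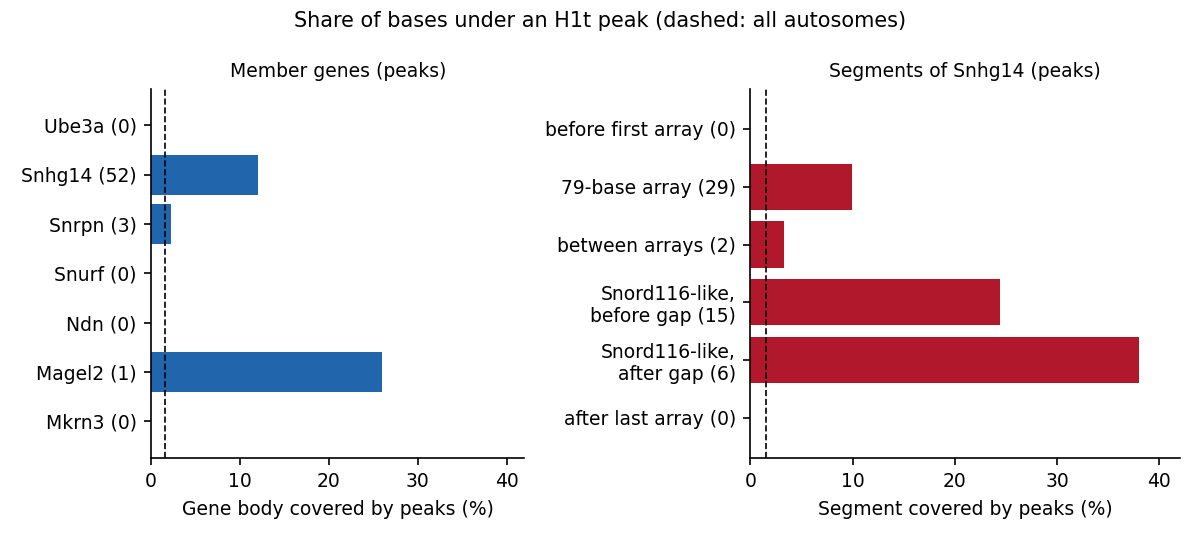
Share of the bases under an H1t peak, in percent, for each member gene (left) and for each segment of Snhg14 (right), with the number of peaks in brackets and the autosomal share of 1.52% as a dashed line. Cover was 12% in Snhg14 and 26.0% in the much shorter Magel2, and within Snhg14 it reached 38.0% in the Snord116-like array after the assembly gap and was 0 beyond both ends of the arrays.

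Within Snhg14 all but 2 peaks lay inside the arrays, whose edges were set at their first and last snoRNA genes. From the Ube3a side, the 36.1 kb before the first array held 0 peaks, the 275.0 kb of the 79-base array held 29, the 54.4 kb between the arrays held 2, and the Snord116-like array held 21. The last 70.9 kb of the gene, next to Snrpn, again held 0. Of the 2 peaks between the arrays, chr7:59672252-59673322 lay on copies of pieces of the Snord116-like unit, the first beginning at 59672217. It counts as outside because the first snoRNA gene of that array begins at 59673461. Peaks covered 9.92% of the 79-base array. The Snord116-like array is broken in the reference by an assembly gap of 50000 undetermined bases, and peaks covered 24.4% of the 133.6 kb before the gap and 38.0% of the 45.6 kb after it. The last peak before the gap ended 5.37 kb short of it and the first peak after it began 0.753 kb beyond. That first peak was 12772 bp wide and made up most of the cover after the gap. How many copies the gap stands for is not given by the assembly, and its part in the values on either side was not tested.

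The share of snoRNA genes touched by a peak was somewhat above the share of bases under a peak in their arrays. An overlap of 1 bp counted for a gene, which by itself lifts the share of genes. No preference for the snoRNA genes can be read from these values. In the 79-base array 17 of 136 snoRNA genes (12.5%) lay under a peak, beside 9.92% of all bases there. The Snord116-like array gave 18 of 51 (35.3%) before the gap, beside 24.4% of its bases, and 9 of 19 (47.4%) after it, beside 38.0%. Of those 9 genes 5 lay under a single peak, chr7:59858073-59870844. The unit repeated every 1.87 kb in the 79-base array and every 2.53 kb in the Snord116-like array. For the peaks narrower than a unit whose centre could be placed within one, the unit was cut into 4 equal parts from the left end of a snoRNA gene, and these held 8, 3, 5 and 7 of 23 in the 79-base array and 6, 1, 3 and 4 of 14 in the Snord116-like array.

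The arrays differed in the depth of signal under their peaks. MACS2, the peak caller, gives for each peak the pileup, which is the number of ChIP fragments over it, and the fold of that pileup over the local background, to both of which it adds 1. The local background, in fragments, can be worked back from these values, only approximately since both are means over the peak, and its usual value over the genome was 4.95. In the 79-base array the 29 peaks had pileups of 9.0 to 12.4 with a median of 10.1, and local backgrounds of 4.95 to 5.58. The 15 peaks of the Snord116-like array before the gap had pileups of 10.7 to 80.8 with a median of 27.7, and local backgrounds of 5.03 to 44.9 with a median of 12.8. The 6 peaks after the gap had pileups of 12.4 to 28.2 with a median of 17.6, and backgrounds of 5.32 to 11.5. Pileup and background were thus high together in the Snord116-like array, and fold differed much less, with medians of 1.85, 1.97 and 2.06 in the 3 segments.

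**Figure D2:**
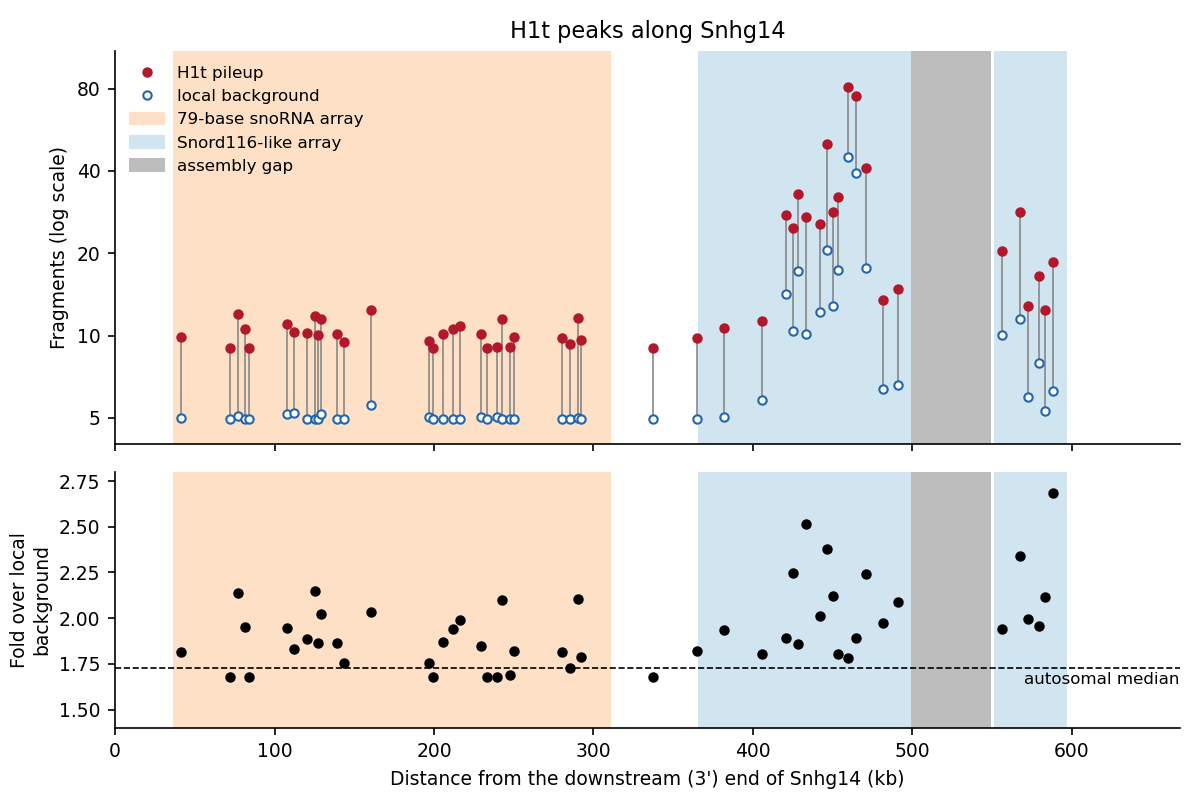
H1t pileup and local background in fragments on a log scale (top, filled and open points joined by a line for each of the 52 peaks) and fold over local background (bottom) against the distance in kb from the 3′ end of Snhg14, the end next to Ube3a. Background stays near 4.95 through the 79-base array and reaches 44.9 in the Snord116-like array, where fold lies between 1.78 and 2.68, and the dashed line is the autosomal median fold of 1.73.

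A background more than 2% above 4.95 was called raised. This was so for 25 of the 56 member peaks, 5 in the 79-base array and 20 in the Snord116-like array, beside 22.1% of the 48366 autosomal peaks. MACS2 takes the local background from the input over a region around the peak. A raised value thus stands for more input at or near the peak, and in the 79-base array it was at most 5.58. The list holds no input pileup for the peaks themselves. Repeated sequence was found in both arrays, but raised background mainly in the Snord116-like array. There 88.5% of 31-mers before the gap and 92.9% after it occurred at more than 1 place in the genome, with medians of 33 and 35 copies. In the 79-base array 85.5% of 31-mers were repeated, with a median of 38 copies, while the background there was close to the usual value. The part of repeated sequence, and of the way fragments with several equal matches were placed, in these pileups was not tested.

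By thresholds stricter than that of the peak call, the array peaks were the stronger ones of the domain. A p under 0.01 was reached by 31 of the 56 member peaks, beside 11.7% of autosomal peaks, and a fold of at least 2 by 16, beside 3.58%. A q under 0.05 was reached by 8, beside 0.242%. All of the peaks that passed any of these thresholds lay in the arrays of Snhg14, and the 8 with q under 0.05 were all in the Snord116-like array, 7 before the gap and 1 after it. In contrast, 35 of the 56 had a −log10 q of 0. The list was made with the lenient threshold of p under 0.05. The share of autosomal peaks with such a q was not worked out, so the 35 are not read as a trait of the domain.

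The highest fold was that of the peak at chr7:59896199-59896492 printed above, 2.68 with a pileup of 18.6 over a background of 6.29. The next was chr7:59738357-59744696, 6340 bp wide and spanning the snoRNA genes Gm26332, Gm26032 and Gm22863, with a fold of 2.52. The peak with the largest −log10 q was chr7:59753944-59754600, over the snoRNA gene Gm25350, with a fold of 2.38, a pileup of 50.1 and a −log10 q of 4.27. The peak at chr7:59875690-59875984 had a fold of 2.34 and a pileup of 28.2. Thus 3 of these 4 peaks stood over backgrounds above 10, and the one with the highest fold did not have the highest pileup.

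Of the other 6 peaks among the 10 of highest fold, 4 belonged to the Snord116-like array. The peaks at chr7:59732743-59734066 and chr7:59778515-59779579, over the snoRNA genes Gm23047 and Gm25157, had folds of 2.25 and 2.24. The peaks at chr7:59758033-59758874 and chr7:59890764-59892185 both had a fold of 2.12. The remaining pair, chr7:59433116-59433396 and chr7:59384582-59384825, came from the 79-base array with folds of 2.15 and 2.14 over backgrounds of 4.96 and 5.09. The largest pileup, singled out after its value was seen, was 80.8 at chr7:59765659-59770082, where the background was 44.9 and the fold only 1.78.

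The widest peaks spanned several repeat units. The widest, chr7:59858073-59870844, was 12772 bp long and covered 5 snoRNA genes, Gm26433, Snord116l17, Gm25615, Snord116l16 and Snord116l15, with a fold of 1.94 and a pileup of 20.4. It was followed by chr7:59416930-59423914 in the 79-base array, 6985 bp over 4 snoRNA genes with a fold of 1.83, and by the 6340 bp peak named above. The peak at chr7:59796213-59801952 was 5740 bp wide with a fold of 2.09, and the peak of largest pileup was 4424 bp wide. The first member peak along the chromosome was chr7:59348640-59349309, in the 79-base array, with a fold of 1.82, and the last was that of Magel2.

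Seen as a set, the member peaks were wider, deeper and more repetitive than autosomal peaks. Outside the arrays fold, pileup and repeat content were closer to the autosomal values, while the peaks were no narrower. Their median fold was 1.88, median pileup 10.8 fragments and median width 946 bp, beside 1.73, 9.41 and 653 over the autosomes. Repeat-masked bases made up 69.5% of member peaks and 33.4% of autosomal peaks, and the median share of repeated 31-mers was 90% and 2.73%. GC content was 46.9% beside 43.5%, and there were 1.01 CpG per 100 bp beside 0.853. For the 6 member peaks outside the arrays these values were a fold of 1.74, a pileup of 9.47, a width of 1062.5 bp, 20.8% masked bases, 6.71% repeated 31-mers, 42.9% GC and 0.923 CpG per 100 bp. The Magel2 peak alone had 53.2% GC and 2.66 CpG per 100 bp. Each of the other peaks outside the arrays had at most 0.736 CpG per 100 bp, below the autosomal value. Among them chr7:59672252-59673322 lay on a copy of the Snord116-like unit, and 55.7% of its 31-mers were repeated. More than 50% of the 31-mers were repeated in 50 of the 56 member peaks (89.3%), and in 16.2% of autosomal peaks.

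**Figure D3:**
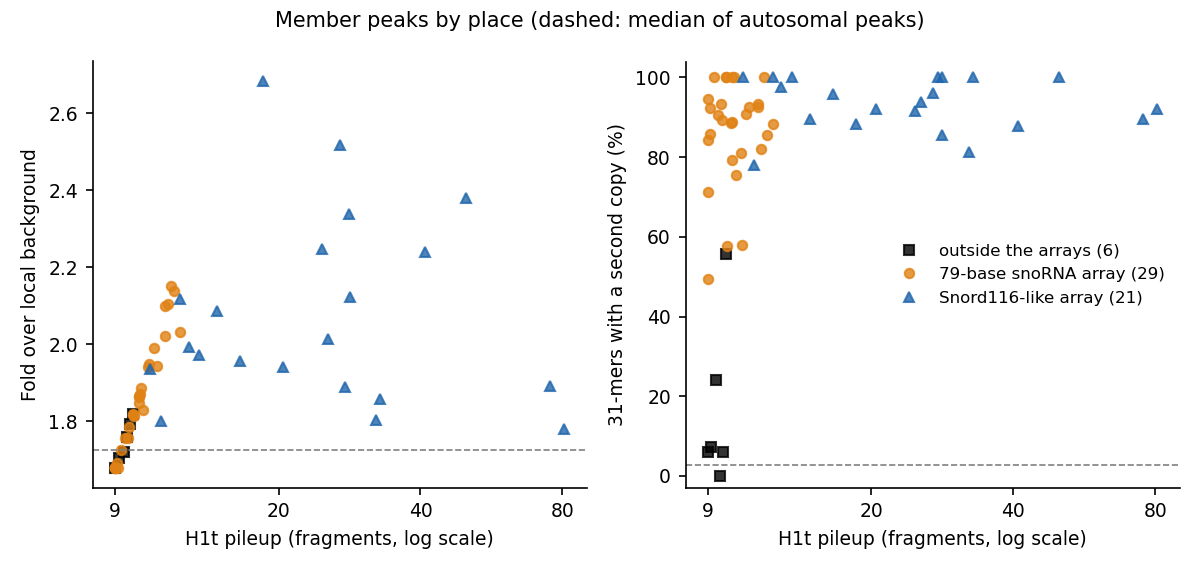
Fold over local background (left) and share of 31-mers found at more than 1 place in the genome in percent (right) against H1t pileup in fragments on a log scale for the 56 member peaks, marked by place, with autosomal medians as dashed lines. The 6 peaks outside the arrays lie at pileups of 9.0 to 9.83, within the range of the 79-base array, the 21 peaks of the Snord116-like array reach 80.8, and where the background has its usual value fold and pileup fall on a single curve by construction.

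Snrpn encodes SmN, a protein of the spliceosomal small nuclear ribonucleoproteins, and Snurf is a short reading frame upstream of it on the same transcript. Snrpn spans chr7:59982495-60140219 on the minus strand, 157.7 kb, and held 3 peaks, all in introns. They were chr7:60012044-60013538, chr7:60030815-60031770 and chr7:60096634-60097687, with folds of 1.71, 1.72 and 1.79 and pileups of 9.15, 9.38 and 9.68. This is 1.90 peaks per 100 kb, and 47.9% of the 3099 autosomal genes of like length were at least as dense, with a median of 2 peaks. Snurf, chr7:59995449-60005049, held 0 peaks, and 18.2% of autosomal genes of like length held at least 1.

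The imprinted start region of Snurf and Snrpn had no peak. The nearest peak lay 6.99 kb upstream of the annotated start of Snurf and 6.93 kb upstream of the nearest Snrpn start of GENCODE. Over the domain, 1 of the 7 genes had a peak within 1 kb of an annotated start, beside 7.45% of autosomal genes. That gene was Snhg14, through 3 internal starts, at 59645543, 59862868 and 59874749, none of them near the end next to Snrpn, where the nearest peak was 36.3 kb away. In the RefSeq annotation Snhg14 and Snrpn both begin farther out, at 60450177, 55.8 kb from the nearest peak. Absence of a peak is not absence of H1t, since regions below the calling threshold are not in the list and its lowest pileup is 9.0.

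Ube3a was free of peaks over its whole body, chr7:59228750-59311536 on the plus strand, 82.8 kb. Of the 5498 autosomal genes of like length 73.8% held at least 1 peak, with a median of 1. The nearest peak outside the members lay 8.0 kb upstream of its start, chr7:59219937-59220747, with a fold of 1.98 and a pileup of 10.99, and the nearest on the other side was the first peak of the 79-base array, 37.1 kb beyond its end. No peak lay in the 3′ part of Ube3a that Snhg14 overlaps in antisense.

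The genes at the far end of the domain are short and lie apart from Snrpn, beyond a long stretch with no member. Ndn encodes necdin, a MAGE family protein of neurons, and held 0 peaks over chr7:62346569-62350262. Mkrn3, a makorin RING finger gene known in humans as a brake on puberty, held 0 over chr7:62417593-62420139. At these lengths a peak is rare, held by 9.12% and 7.02% of autosomal genes of like length. Magel2, chr7:62377010-62381640 on the plus strand, held 1 peak, beside at least 1 in 10.6% of genes of like length, and 4.5% of those were as dense. That peak, chr7:62380081-62381284, was 1204 bp wide with 1121 bases in the coding sequence, and had a fold of 1.76, a pileup of 9.56 and a q of 1. It held 32 CpG, 3.0% masked bases and no repeated 31-mer, and began 3.07 kb from the start of the gene.

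The nearest peak beyond Snrpn was chr7:60317324-60317751, 177.1 kb away with a fold of 1.72, and the nearest beyond Magel2 was chr7:62391832-62392681, 10.2 kb away with a fold of 1.70. The 47 peaks of the window outside the member genes had folds of 1.64 to 2.06, with a median of 1.76, and a median pileup of 9.58. They had 62.7% masked bases, a median width of 671 bp, and a raised background in 16, beside 20.8%, 1062.5 bp and 0 for the 6 member peaks outside the arrays.

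In steps of 100 kb from 59000001 to 63000000, the window held 103 peaks, or 26.1 per Mb of determined sequence, beside 20.2 over the autosomes and 23.8 on chromosome 7. Peaks covered 3.03% of it, beside 1.52% of the autosomes. The 7 steps that Snhg14 overlaps held 5, 9, 14, 4, 14, 6 and 0 peaks, 52 in all, and the other 33 steps held 51, at most 5 each. The highest value, 14, was reached or passed by 0.238% of autosomal steps. Steps with no peak numbered 10 of 40, or 25%, beside 14.9% of autosomal steps. Without the Snhg14 steps the window had 15.5 peaks per Mb, below the autosomal value, so that its excess over the autosomes came from Snhg14.

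**Figure D4:**
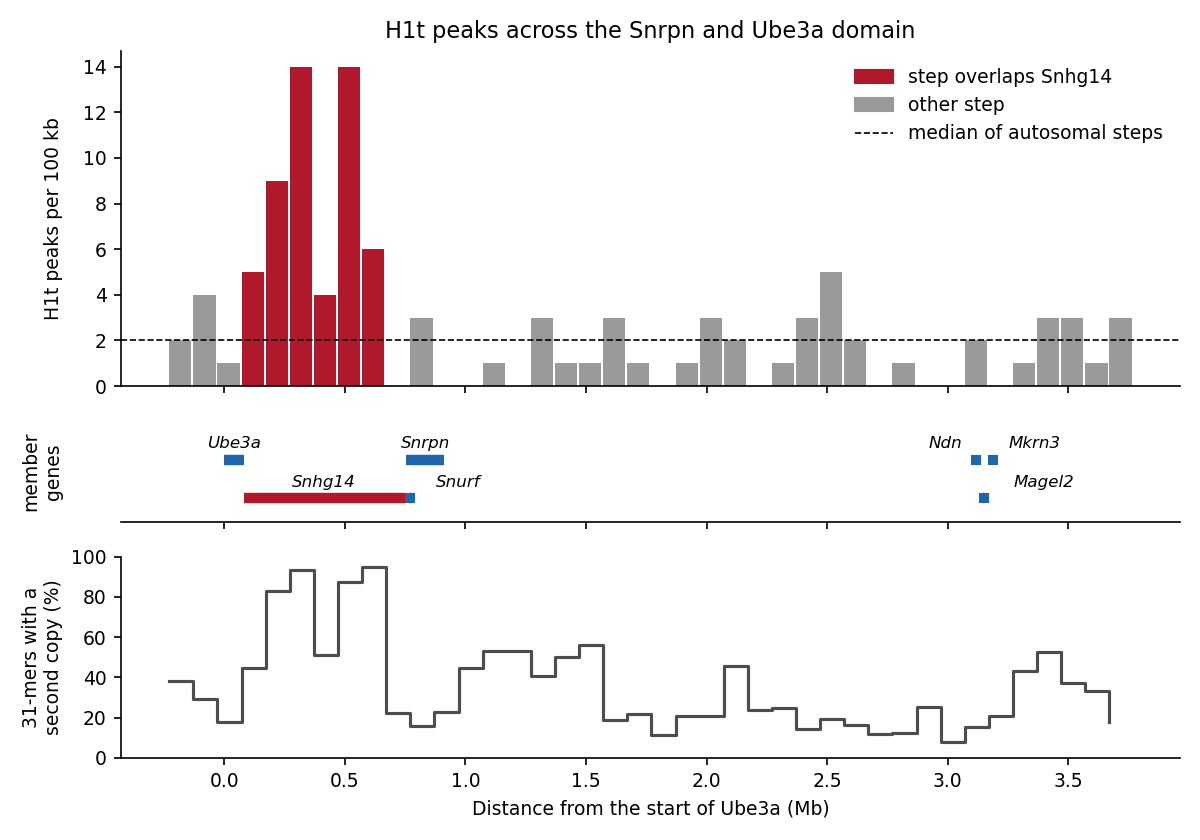
H1t peaks in each of the 40 steps of 100 kb (top, red where the step overlaps Snhg14, dashed line at the autosomal median of 2), the bodies of the 7 member genes (middle) and the percentage of 31-mers found at more than 1 place in the genome in each step (bottom), against the distance in Mb from the start of Ube3a. The 2 steps with 14 peaks are both in Snhg14, and the other 33 steps hold 0 to 5.

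Several stretches of the window were free of peaks, and how common stretches of such length are over the autosomes was not worked out. The longest in the window was 304.5 kb, chr7:62075598-62380080, which holds the whole of Ndn, and chr7:62392682-62565669, 173.0 kb, holds the whole of Mkrn3. Stretches of 268.5, 239.1 and 188.2 kb lay between Snrpn and Ndn, and one of 219.6 kb, chr7:60097688-60317323, began inside Snrpn and held its outermost GENCODE start. Of the 277 annotated genes of the window 53 held a peak, beside 21.7% of all autosomal genes. Among the 211 snoRNA genes of the window 44 held a peak, all of them inside Snhg14. These 211 make up most of the 277, and the 2 array families have median lengths of 79 and 94 bases. The 21.7% is over genes of all lengths, and at the length of Mkrn3 the autosomal share was 7.02%. The share over genes as short as the snoRNA genes was not worked out. Besides the members and these snoRNA genes, a peak was held by 4 long intergenic noncoding RNA genes. They were A230057D06Rik with 7 peaks, A230006K03Rik with 4, Gm32061 with 2 and Gm44644 with 1. The miRNA gene Gm23917 and the protein-coding gene A26c2 held 1 each. Some of these peaks are counted more than once, since Gm32061 spans Magel2 and its peak, and Gm23917 lies within A230057D06Rik.

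Of the other genes of the imprinted domain, Ipw, a paternally expressed noncoding RNA that RefSeq places at chr7:59619158-59678878 within Snhg14, held the 2 peaks between the arrays. Peg12, a paternally expressed gene beyond Mkrn3, held 0, as did the single-copy snoRNA genes Snord64 and Snord107 between Snhg14 and Snrpn. The annotation has no gene named exactly Snord115 or Snord116, so those list entries were not matched, and the array copies were counted by sequence family. Among 13 neighbouring genes on either side of the domain 12 held a peak, beside 21.7% of all autosomal genes. They were up to 670.7 kb long and were not matched for length. They held 58 peaks in all, or 2.08 per 100 kb, beside a mean of 2.01 in the autosomal steps of 100 kb. Gabrg3, a GABA receptor subunit gene about as long as Snhg14 at 670.7 kb, held 14 peaks, or 2.09 per 100 kb, beside 7.79 in Snhg14. Atp10a, next to Ube3a, held 1, and Chrna7, an acetylcholine receptor subunit gene, held 0. Of 24 imprinted genes elsewhere in the genome 10 held a peak, beside the same 21.7%, again not matched for length. They held 25 peaks in all and 1.59 per 100 kb. Rian and Mirg, which also host arrays of small RNAs, held 0 over 57.8 and 19.7 kb. The share of genes of their length with no peak was not worked out.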

How the data were processed

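The authors aligned paired reads to GRCm38.p5 with Bowtie2 and called broad peaks with MACS2 2.1.2 at p under 0.05 on pooled libraries, with 1 copy of each duplicate kept and an effective genome size of 1.87e+09, as the deposited list's header and the study's methods state. The deposited list gives for each peak a pileup signal (coverage by ChIP fragments), a fold ratio over local background, and −log10 p-values and q-values. Its header calls q not calculated, but the column holds values. The names of both −log10 columns are unreadable and were taken in the order MACS2 writes them. Peak numbers start at 310, so 309 numbers are not in the list. No per-sample columns were left out (0).

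Peaks were laid over GENCODE vM21 and GRCm38.p6, whose chromosomes have the coordinates of GRCm38.p5, with Python 3.11.15, numpy 2.4.6 and pandas 2.3.3. Masked bases are lower case in the RefSeq genome, and 31-mers were counted over 21 chromosomes on both strands. Copies were searched with blastn 2.17.0. snoRNA genes sharing at least 50% of the 10-mers of the commonest Snord116 sequence were called Snord116-like, and those sharing at least 20%, a share set after seeing the data, with the commonest other sequence the 79-base family. A peak belongs to the segment of Snhg14 that holds its centre. Steps with 50% or more undetermined bases were left out of the autosomal comparison. Counts of overlaps and 31-mers were checked on simulated data. Members and gene lists were chosen with earlier results of these data known. Named were all members, their 10 peaks of highest fold, the 5 widest, the first and the last, the 3 Snrpn peaks as well, and fixed lists of domain, neighbouring and imprinted genes. Entrep2 was matched by its older symbol Fam189a1. Fragment depth is that of the pools and cannot be divided among libraries.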

Additional observations from a re-analysis of the deposited data

How the results depend on the processing

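The 56 member peaks became 31 with p under 0.01, 16 with a fold of at least 2, 8 with q under 0.05 and 31 at the usual background, and the 103 window peaks became 38, 18, 8 and 62. Merging peaks within 3 kb left 42 and 88, and RefSeq gene bodies gave 57. The step share of 0.238% became 0.154% in 50 kb steps, 0.392% in shifted steps, 0.705% on chromosome 7 and 0.137% among steps with no protein-coding start. Within 5 kb, 2 of 7 genes had a peak near a start, beside 23.2% of autosomal genes. An alternative chosen after seeing the data kept only the 6 member peaks outside the arrays. The difference from autosomal peaks in median fold then went from 0.15 to 0.013 and in pileup from 1.36 to 0.06, while in width it went from 293 to 409.5 bp. Masked bases went from 36.2 to −12.5 percentage points, GC from 3.43 to −0.605 and CpG per 100 bp from 0.157 to 0.0693, because the arrays hold most members. Set beside the gene bodies outside peaks, these 3 differences were 12.7, 6.22 and 0.286. The CpG difference of 0.0693 rests on the Magel2 peak, since no other of the 6 peaks was above the autosomal value. No paired analysis was possible because both ChIP and both input libraries were pooled before peaks were called, and no replicate could be left out. The counts rest on a single list with no measured replicate error.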
